A study of Mus musculus with 11 samples.

Results

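The genes described here carry CD47, the protein by which tumor cells tell macrophages not to engulf them, and the other signals that phagocytes read on a cell or around it. They are 10 of the 35056 annotated genes to which the transcripts quantified in KP1 cells were summed, of which 20526 had a read. They were named by function: the don't-eat-me ligands *Cd47*, *Cd24a*, *Cd274* and *Cd200*, the checkpoint ligand *Pvr*, the glutaminyl cyclases *Qpct* and *Qpctl*, the eat-me and danger signals *Calr* and *Hmgb1*, and the secreted CD47 ligand *Thbs1*. KP1 is a mouse small cell lung cancer (SCLC) line mutant for Rb and p53. Bulk RNA sequencing covered 2 libraries of untreated KP1 cells (control replicates 2 and 3) and 3 libraries of KP1 cells given 5 Gy (irradiated replicates 1, 2 and 3), all grown in RPMI-1640 medium and collected at 24 h. The sample labels name bovine growth serum as the supplement, where the methods of the study name fetal bovine serum. The line was cultured alone, without macrophages or a host, and no source says that the replicates were separate cultures, so the p values measure only the spread between these libraries. The study compared them to learn how SCLC cells respond to radiation in culture.

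In background, CD47 on a target cell binds SIRPα on a macrophage and halts engulfment. A glutaminyl cyclase closes the first residue of mature CD47 into a ring that SIRPα needs for tight binding. Calreticulin on the surface and phosphatidylserine on the outer leaflet act the other way and invite engulfment. CD24, PD-L1 and CD200 are further surface proteins that dampen phagocytes through receptors of their own.

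The identity of the cells was read from markers first. All 10 genes of a neuroendocrine SCLC list were detected and tested, and their summed level was 2720 and 2870 TPM in control replicates 2 and 3 and 2880, 2870 and 2680 TPM in irradiated replicates 1, 2 and 3 (TPM, an abundance scaled for transcript length and to a total of 1000000 in each library). At an adjusted p under 0.05, edgeR called 4 of the 10 higher and 1 lower after irradiation, against 12.7% and 13% of all tested genes. All 5 calls were lost with the transcript length offset described below (adjusted p from 0.0505 to 0.304 in edgeR) and without control replicate 2 (adjusted p from 0.0965 to 0.216 in edgeR), while each kept its direction. For *Epcam*, *Calca*, *Uchl1*, *Syp* and *Ncam1* the log2 fold changes were 1.34, 1.18, 1.14, 0.64 and −1.2, then 1.12, 0.55, 0.56, 0.29 and −0.78 with the offset, and 1.05, 0.95, 0.81, 0.53 and −0.67 without control replicate 2. Of 12 leukocyte markers, 7 had fewer than 3 reads in every library, among them *Csf1r*, *Adgre1* and *Lyz2*, and *C1qa* and *Tyrobp* were at 0 throughout. The leukocyte list summed to 4.55 and 7.87 TPM in control and to 4.31, 2.39 and 3.01 TPM in irradiated libraries, and its most abundant gene was *Cd68* at a mean of 2.92 TPM. *Cd79a*, the only other tested gene of this list, went against the sum. It had 0 and 8 reads in control and 52, 21 and 26 reads in irradiated libraries. DESeq2 called it (adjusted p = 0.0158), and edgeR with the filter on low counts and all libraries did not (adjusted p = 0.0727). Without that filter edgeR called it (adjusted p = 0.0126). The 8 fibroblast and endothelial markers summed to 15.2 TPM in control replicate 2, to 1.45 TPM in control replicate 3 and to 0.625, 0.722 and 0.672 TPM in the irradiated libraries, with *Col1a1* the most abundant at a mean of 2.77 TPM and *Col3a1* at 0. In control replicate 2 *Col1a1* alone stood at 13.5 TPM, from 33 reads.

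The libraries differed in the length of transcript they sampled, and this ran with the groups. The read-weighted mean transcript length was 5465 bases in control replicate 2, 4731 in control replicate 3, and 3716, 3626 and 3999 in irradiated replicates 1, 2 and 3. Across the 14106 tested genes, the median log2 fold change of irradiated against control cells went from 0.77 in the decile of genes with the shortest transcripts to −0.78 in the decile with the longest. Transcripts with a retained intron took 5 and 5.43% of TPM in control libraries against 2.32, 3.1 and 2.97% in irradiated libraries. Length and irradiation cannot be told apart across these 5 libraries, so fold changes of most genes named below are given also with an offset that removes each library's trend with transcript length (the length offset). No measure of RNA integrity was used here and the part of RNA or library quality in the length difference was not tested, so no fold change below can be credited to irradiation alone. The libraries held 31036317 and 26432466 reads in control and 24469945, 21185956 and 27243557 reads in irradiated cells.

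The 10 genes differed widely in level. *Cd24a* led with a mean of 602 TPM over the 5 libraries, followed by *Calr* at 493 and *Hmgb1* at 444 TPM, and the ranges of neighbours among these 3 genes overlapped. *Cd47* came next at a mean of 53.5 TPM (37.3 to 68.9), above 75.2% of tested genes, and its range met neither that of *Hmgb1* nor that of *Cd200*. *Cd200* at 25.5 and *Qpctl* at 11.5 TPM stood apart from their neighbours in the order. *Qpct* at 6.28, *Pvr* at 2.79 and *Cd274* at 1.35 TPM formed a low group in which neighbours overlapped. *Thbs1* was close to the floor of detection at a mean of 0.0903 TPM, from 5 to 11 reads a library.

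**Figure D1:**
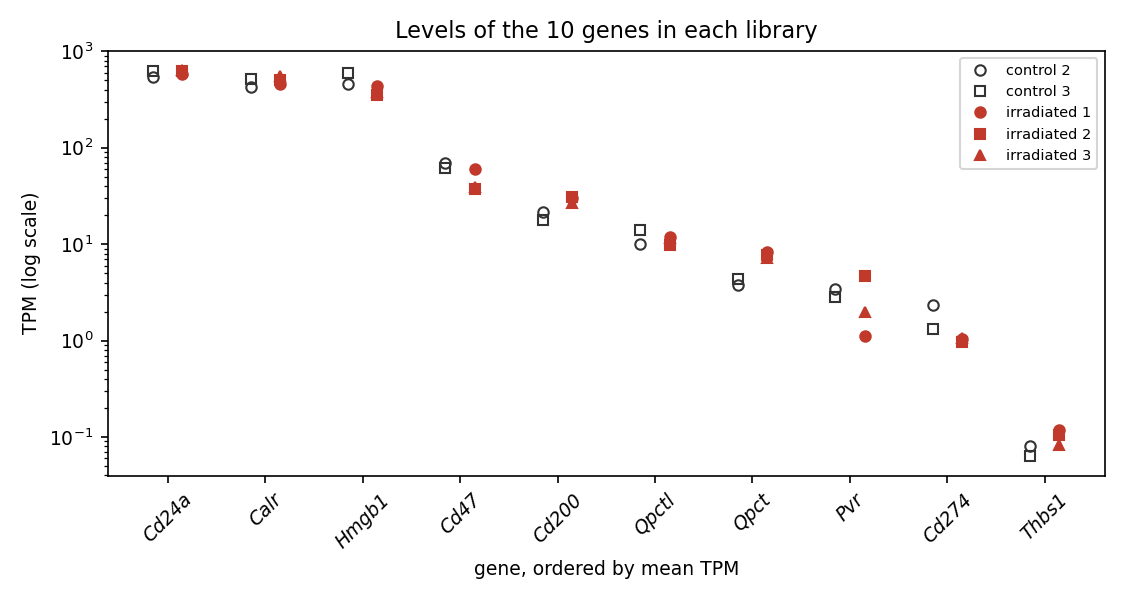
Level of each of the 10 genes in TPM on a log scale, with 1 point for each library (open black symbols, 2 control libraries; filled red symbols, 3 irradiated libraries). *Cd24a*, *Calr* and *Hmgb1* lie between 355 and 639 TPM, *Cd47* between 37.3 and 68.9 TPM, and *Thbs1* between 0.0632 and 0.119 TPM.

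The 2 groups were then compared by the quasi-likelihood test of edgeR, its p values adjusted by Benjamini-Hochberg over the 14106 tested genes. All 10 genes passed the filter on low counts. At an adjusted p under 0.05 in edgeR, 1 of the 10 was called, *Qpct*, which was higher after irradiation, against 25.6% of all tested genes in either direction and 12.7% in the upward direction. DESeq2 called 3 of the 10, *Qpct*, *Cd200* and *Calr*, against 22.1% of the genes it fitted. With the length offset edgeR called 0 of the 10, where 3 had an unadjusted p under 0.05 and 7.11% of all tested genes were called. Without control replicate 2, the library with the longest sampled transcripts, edgeR called 0 of the 10, where 1 had an unadjusted p under 0.05 and 1.85% of all tested genes were called. None of the 10 passed the further limit of a log2 fold change beyond 1.5, against 3.53% of tested genes. In CPM (reads per 1000000 after TMM normalization), the irradiated libraries lay wholly outside the control range for 7 of the 10 genes, 5 above and 2 below, against 59.4% of tested genes. The median log2 fold change of the 10 was 0.27, with 6 above 0. That of all tested genes was 0.02, with 7200 of 14106 above 0. The length deciles of the 10 genes had medians of their own, from −0.78 for *Thbs1* to 0.41 for *Cd200*. The decile that holds *Cd24a*, *Qpct*, *Calr* and *Hmgb1* had a median of 0.28, and that of *Cd47* and *Qpctl* 0.03. For 2 against 3 libraries the smallest exact permutation p is 0.1, and edgeR reaches lower values by pooling the spread of many genes.

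**Figure D2:**
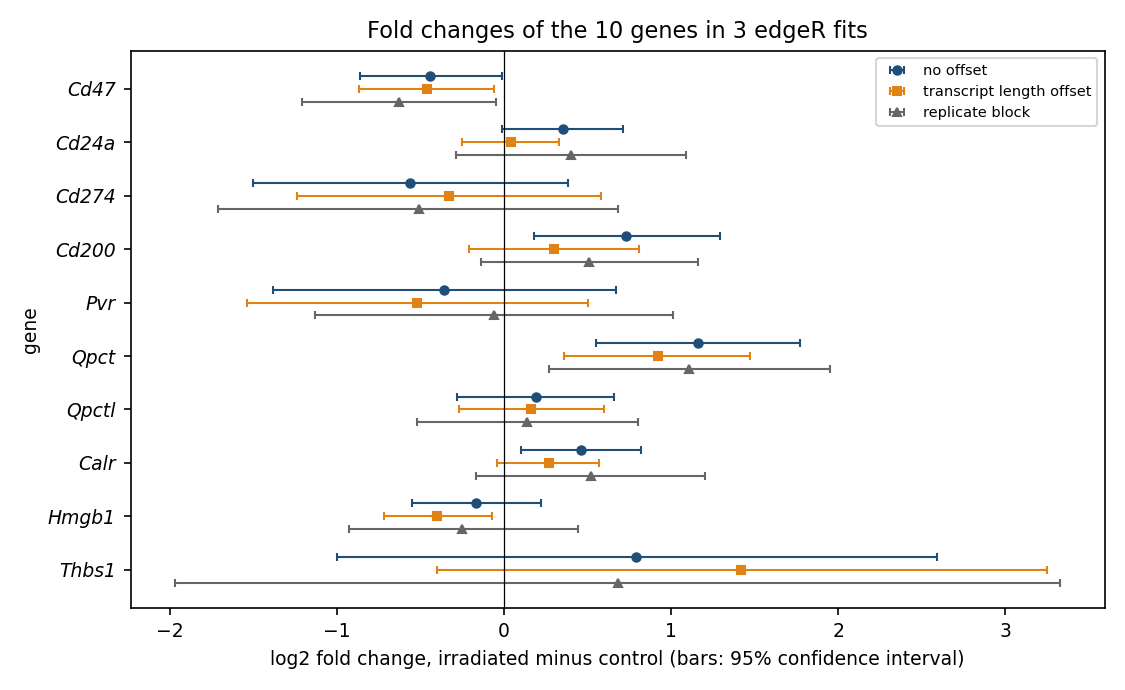
Log2 fold change of irradiated against control cells for each of the 10 genes, with its 95% confidence interval, in 3 edgeR fits: without an offset (blue circles), with the length offset (orange squares) and with the replicate number as a block (gray triangles). Without an offset the *Qpct* interval runs from 0.55 to 1.77, and the widest, that of *Thbs1*, from −1 to 2.59.

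*Cd47* itself, on chromosome 16 of GRCm38 (chr16:49800533-49915010, plus strand), had 91.5 and 91.1 CPM in control replicates 2 and 3 and 83.7, 57.1 and 61.4 CPM in irradiated replicates 1, 2 and 3. All 3 irradiated libraries lay below both controls, and irradiated replicate 1 lay much nearer to the controls than the other two irradiated libraries did. The log2 fold change was −0.44 (95% confidence interval −0.86 to −0.01, SE 0.19), and at an adjusted p of 0.114 in edgeR *Cd47* did not pass the threshold. The length offset left the estimate at −0.46 (adjusted p = 0.126 in edgeR). That offset rests on 1 mean length for the gene, 2688 bases. The length decile there had a median log2 fold change of 0.03, so the offset could change little. In control replicate 2, 1890.2 of the 2614 reads fell on a transcript of 5250 bases. The part of sampled length in the *Cd47* difference was not tested. An offset from Salmon's effective lengths, which follows the mix of *Cd47* transcripts in each library, gave −0.17 (adjusted p = 0.634 in edgeR). Without irradiated replicate 1 the log2 fold change was −0.62, and edgeR's adjusted p of 0.0479 then fell under the threshold.

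The pattern of *Cd47* over the 5 libraries was set against 10288 protein-coding genes of at least 5 TPM, by the root mean square difference in log2 CPM after centring each gene on its mean. *Cars*, an aminoacyl-tRNA synthetase gene, was nearest at 0.0188, with 84.2 and 81.9 CPM in control and 76.1, 51.3 and 57 CPM in irradiated libraries. *Scaper* (0.0379), *Mybl2* (0.0459), *Sestd1* (0.0459) and *Tars* (0.0478) followed. None of these 5 genes was called by edgeR, with log2 fold changes from −0.51 for *Mybl2* to −0.41 for *Scaper* and *Sestd1*, and all share the same 5 libraries with *Cd47*.

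GENCODE lists 10 transcripts of *Cd47*, and 2 of them held most of its RNA. Cd47-205 has 1316 bases and a last exon of 213 bases, and Cd47-201 has 5250 bases and a last exon of 4142 bases, most of it 3′ untranslated. Their coding parts also differ, at 963 bases in Cd47-205 and 972 in Cd47-201. CD47 isoforms are known to differ in the length of the cytoplasmic tail, and the exons that differ between these transcripts lie there and in a short stretch after the exon of the extracellular immunoglobulin-like domain.

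Cd47-205 stood at 38.8 and 29.3 TPM in control replicates 2 and 3 and at 40.1, 22.6 and 20.9 TPM in irradiated replicates 1, 2 and 3, so that the groups overlapped. Cd47-201 stood at 24.2 and 27.1 TPM in control and at 16.5, 11.1 and 14.5 TPM in irradiated libraries, each below both controls. Cd47-203, the next in abundance, had 4.3 and 3.45 TPM in control and 1.93, 1.19 and 3.12 TPM in irradiated libraries. Cd47-206 and Cd47-208 had no reads in any library, and Cd47-202, Cd47-204, Cd47-207, Cd47-209 and Cd47-210 each stayed at or below 21.5 reads in all libraries. The lower TPM of *Cd47* in irradiated replicates 2 and 3 thus appeared in both main transcripts, while in irradiated replicate 1 it appeared in Cd47-201 and not in Cd47-205.

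The fit on transcripts was scaled by TMM over transcripts and not by TPM, which by itself places log2 fold changes 0.22 above those of the fit on genes. On that scale Cd47-201 had 58.9 and 67.8 CPM in control and 59.3, 40.4 and 47.8 CPM in irradiated libraries, and here irradiated replicate 1 lay between the controls. Its log2 fold change was −0.37 (SE 0.2, adjusted p = 0.36 in edgeR), where the log2 ratio of mean TPM was −0.87. Cd47-205 had 19.6 and 15.2 CPM in control and 29.7, 16.8 and 14.4 CPM in irradiated libraries, with a log2 fold change of 0.22 (SE 0.38, adjusted p = 0.793 in edgeR) where the log2 ratio of mean TPM was −0.29. The direction of Cd47-205 therefore depends on the scale. None of the 4 *Cd47* transcripts among the 40440 tested was called, where the background share was 0%. That fit called 0 of 40440 transcripts in edgeR, although 8407 had an unadjusted p under 0.05 in edgeR, so it does not set *Cd47* apart. The 0 depends on the filter, since edgeR on every transcript with a read called 1380 of 71554, none of them of *Cd47*. DESeq2 was not run on transcripts.

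As a share of the gene's TPM, Cd47-205 made up 56.3 and 47.2% in control replicates 2 and 3 and 66.6, 60.5 and 53.2% in irradiated replicates 1, 2 and 3. Irradiated replicate 3 lay between the controls and the other two irradiated libraries lay above them. The difference of the means was 8.3 percentage points (exact two-sided permutation p = 0.3, smallest possible 0.1). Cd47-201, the longest transcript, took 35.2 and 43.8% in control and 27.4, 29.8 and 36.7% in irradiated libraries, and the libraries' sampled length was likewise lower in the irradiated group. Control replicate 2 had the longest sampled length but not the highest Cd47-201 share. The part of sampled length in this share was not tested.

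**Figure D3:**
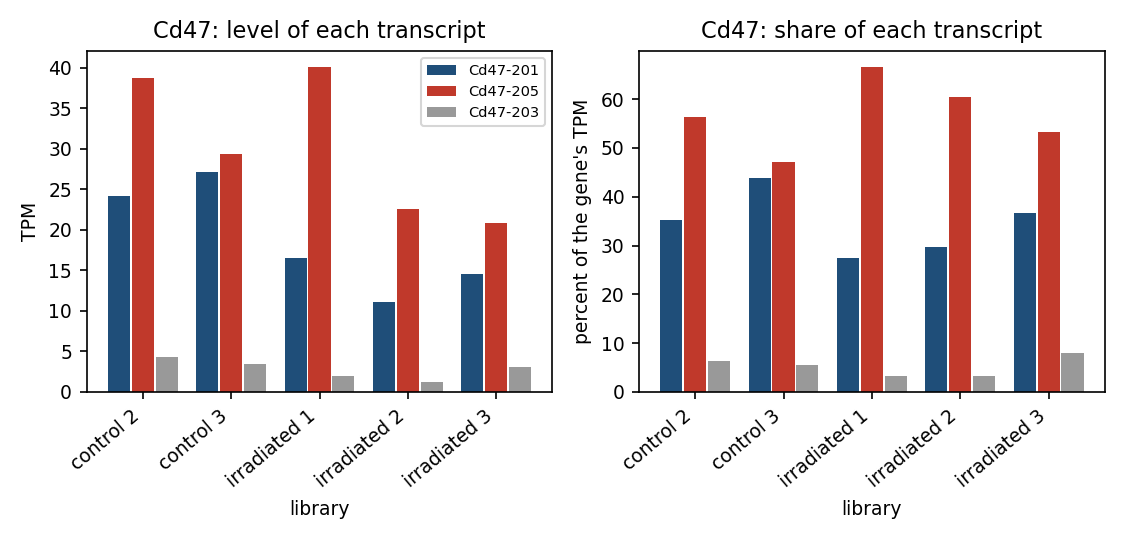
TPM (left) and percent of the gene's TPM (right) of Cd47-201, Cd47-205 and Cd47-203 in each of the 2 control and 3 irradiated libraries, 1 bar for each transcript and library. Cd47-205 is the tallest bar in every library, from 47.2 to 66.6% of the gene's TPM.

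The exons that separate the transcripts are shown because they tell which protein tail the RNA encodes. Every *Cd47* transcript holds a coding exon of 32 bases at chr16:49906781-49906812. Cd47-201 goes from there straight into the last exon, Cd47-203 first takes in an exon of 25 bases at chr16:49908054-49908078, and Cd47-205 takes in that exon and another of 33 bases at chr16:49908703-49908735. The coding sequences from the 32-base exon to the last coding base before the stop codon follow (GENCODE transcripts, GRCm38, plus strand, 5′ to 3′), with the exons that Cd47-201 lacks in capitals.
Cd47-201: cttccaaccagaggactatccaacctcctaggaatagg
Cd47-203: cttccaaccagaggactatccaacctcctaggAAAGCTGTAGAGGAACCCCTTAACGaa
Cd47-205: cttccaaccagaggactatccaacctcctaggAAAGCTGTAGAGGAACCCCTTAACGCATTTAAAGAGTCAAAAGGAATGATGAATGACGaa

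The 38 coding bases of the Cd47-201 tail thus stood against 59 in Cd47-203 and 92 in Cd47-205. Transcripts with the 33-base exon, of which Cd47-205 alone had reads, are the share given above. Transcripts with the 25-base exon in this form summed to 62.6 and 52.8% of the gene's TPM in control and to 69.8, 63.7 and 61.1% in irradiated libraries, and these ranges overlapped.

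**Figure D4:**
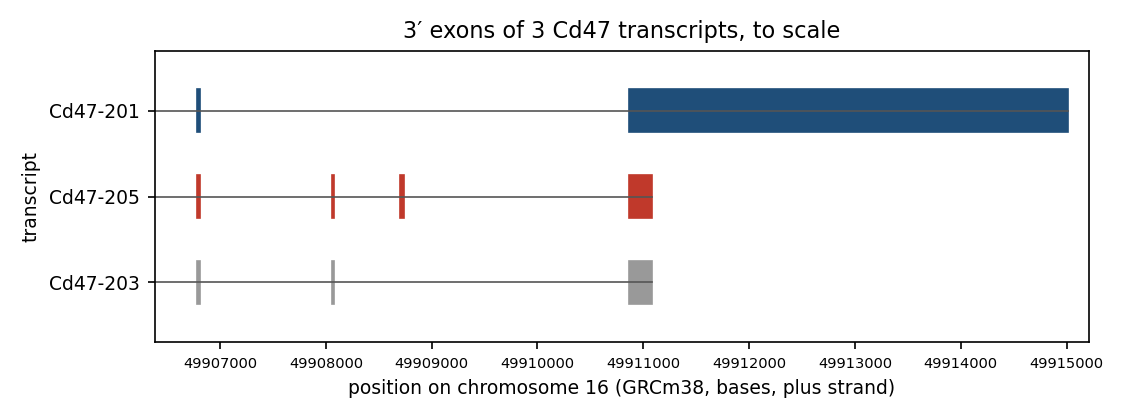
Exons of Cd47-201, Cd47-205 and Cd47-203 (boxes) and introns (lines) at the 3′ end of the gene, drawn to scale along chromosome 16 of GRCm38 in bases. The 25-base exon is in Cd47-203 and Cd47-205, the 33-base exon in Cd47-205, and the last exon is 4142 bases in Cd47-201 and 213 bases in the others.

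The second coding difference is an exon of 63 bases at chr16:49869018-49869080, kept in Cd47-201 and Cd47-203 and skipped in Cd47-205. Its surroundings are given with 15 bases of the exon on each side and the 63-base exon in capitals.
Cd47-201: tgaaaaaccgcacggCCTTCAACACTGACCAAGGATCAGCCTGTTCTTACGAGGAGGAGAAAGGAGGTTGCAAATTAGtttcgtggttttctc
Cd47-205: tgaaaaaccgcacggtttcgtggttttctc

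Transcripts with this exon summed to 43.6 and 49.9% of the gene's TPM in control and to 32.2, 36.5 and 45.3% in irradiated libraries, so irradiated replicate 3 fell between the controls. KP1 cells thus carried RNA with and without the exon in every library. Short reads were assigned by Salmon to whole transcript models, so the shares of the 25-, 33- and 63-base exons rest on the transcript estimates and not on reads counted across each junction.

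None of the other don't-eat-me ligands was called by edgeR with the filter, TMM factors, all libraries and neither offset nor block. *Cd24a*, whose glycoprotein is read by Siglec receptors, had 450 and 513 CPM in control and 574, 657 and 613 CPM in irradiated libraries. All irradiated libraries lay above the controls in CPM, while in TPM the groups overlapped, at 542 and 631 in control and 575, 622 and 639 in irradiated libraries. The log2 fold change of 0.35 (95% confidence interval −0.01 to 0.71) did not pass the test (adjusted p = 0.129 in edgeR). With the length offset it was 0.04 (adjusted p = 0.844 in edgeR), while an offset for GC content gave 0.60 and a call (adjusted p = 0.0314 in edgeR). Cd24a-201 held at least 98% of the gene's TPM in each library.

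*Cd200*, whose product restrains myeloid cells through CD200R1, had 13.2 and 14.7 CPM in control and 29.8, 21.7 and 18.2 CPM in irradiated libraries. The groups did not overlap, and irradiated replicate 1 was the highest. The log2 fold change was 0.73 (95% confidence interval 0.18 to 1.29), just short of the threshold at an adjusted p of 0.0565 in edgeR. DESeq2 gave 0.74 and called it (adjusted p = 0.026), as did edgeR with upper-quartile factors, without the filter, with the effective length or GC offset and without irradiated replicate 3. With the length offset edgeR gave 0.30 (adjusted p = 0.398). Its main coding transcript, Cd200-202, had 9.52 and 12.2 TPM in control and 20.2, 12.6 and 11.9 TPM in irradiated libraries, so at this level irradiated replicate 3 lay within the controls. The rest of the gene's TPM fell on shorter models that GENCODE classes as processed transcripts or as targets of nonsense-mediated decay, with estimates from 0 to 8.87 TPM between libraries.

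*Cd274*, which encodes PD-L1, was low, with 4.27 and 2.36 CPM in control and 2.31, 2.24 and 2.22 CPM in irradiated libraries. Control replicate 2 alone stood high, and control replicate 3 was near the irradiated values. The log2 fold change of −0.56 (95% confidence interval −1.5 to 0.38, adjusted p = 0.34 in edgeR) became −0.05 without control replicate 2, and was −0.33 with the length offset (adjusted p = 0.61 in edgeR). *Pvr*, the ligand of TIGIT and CD226 on lymphocytes, overlapped between groups at 4.62 and 2.81 CPM in control and 1.75, 3.88 and 3.10 CPM in irradiated libraries. Its log2 fold change of −0.36 (adjusted p = 0.585 in edgeR) was 0.06 without control replicate 2, 0.06 with the effective length offset and −0.52 with the length offset (adjusted p = 0.46 in edgeR). Retained-intron models took 17.3 and 56% of *Pvr* TPM in control and 21.2, 60.8 and 6.42% in irradiated libraries, so its coding level is less certain than its read total.

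Of the 2 glutaminyl cyclase genes, edgeR called that of the secreted enzyme in the fit with all libraries and neither offset nor block. The difference between the 2 genes was not tested. *Qpct* (chromosome 17, plus strand) had 3.68 and 4.02 CPM in control replicates 2 and 3 and 9.12, 8.91 and 7.76 CPM in irradiated replicates 1, 2 and 3, from 105 and 107 reads against 229, 195 and 213 reads. The lowest irradiated library was well above the higher control. *Qpct* rose 2.23-fold, a log2 fold change of 1.16 (SE 0.27, 95% confidence interval 0.55 to 1.77), with an adjusted p of 0.0188 in edgeR and in 3 of 3 irradiated libraries. Genes in the same decile of transcript length had a median log2 fold change of 0.28. The call held with the effective length offset (1.29, adjusted p = 0.0282 in edgeR) and the GC offset (1.40, adjusted p = 0.013 in edgeR). It held too with RLE or upper-quartile factors, without the filter, and without irradiated replicate 1 or 3. Without control replicate 3 the log2 fold change was 1.24. With the length offset the log2 fold change was 0.92 and the call was lost (adjusted p = 0.0583 in edgeR). It was lost too with the replicate block (1.11, adjusted p = 0.092 in edgeR), with the block and length offset together (0.88, adjusted p = 0.203 in edgeR), without control replicate 2 (1.12, adjusted p = 0.0888 in edgeR) and without irradiated replicate 2 (1.13, adjusted p = 0.0704 in edgeR), while the direction was the same in each.

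Both coding transcripts of *Qpct* with reads had higher values in the irradiated libraries. Qpct-201 had 3.77 and 4.04 TPM in control and 6.7, 6.3 and 6.28 TPM in irradiated libraries. Qpct-203, a shorter coding model, had 0 and 5 reads in control and 32.3, 25.1 and 20.4 reads in irradiated libraries. In edgeR neither was called as a transcript (log2 fold change 1.23 and 3.61, adjusted p = 0.15 and 0.268).

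*Qpctl* encodes the Golgi-resident cyclase, the form known to modify CD47, and was the more abundant of the pair in every library. It had 13.4 and 17.7 CPM in control and 19.1, 16.4 and 17.6 CPM in irradiated libraries. The groups overlapped, and the log2 fold change was 0.19 (95% confidence interval −0.28 to 0.66, adjusted p = 0.526 in edgeR), or 0.16 with the length offset (adjusted p = 0.591 in edgeR). In TPM *Qpctl* stood at 10.1 and 13.9 in control and 12, 9.85 and 11.5 in irradiated libraries, against 3.77 and 4.34 and then 8.35, 7.7 and 7.27 TPM for *Qpct*.

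Among the eat-me and danger signals, *Calr*, which encodes calreticulin, had 425 and 482 CPM in control and 574, 651 and 644 CPM in irradiated libraries. Every irradiated library exceeded both controls in CPM, while in TPM the groups overlapped, at 431 and 515 in control and 459, 505 and 557 in irradiated libraries. In edgeR the log2 fold change was 0.46 (95% confidence interval 0.10 to 0.82), not called at an adjusted p of 0.0645 in edgeR but called by DESeq2 (0.46, adjusted p = 0.0165) and in edgeR with upper-quartile factors or without the filter. With the length offset it was 0.27 (adjusted p = 0.216 in edgeR). The spliced coding transcript, Calr-201, had 395 and 457 TPM in control and 458, 488 and 530 TPM in irradiated libraries, so irradiated replicate 1 was level with control replicate 3. Retained-intron models took 8.18 and 11.1% of *Calr* TPM in control and 0.216, 3.38 and 4.93% in irradiated libraries, the same order of groups as the retained-intron share of all TPM. Whether these shares move for the same reason was not tested.

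*Hmgb1*, a chromatin protein that acts as a danger signal once released, overlapped between the groups at 447 and 537 CPM in control and 490, 411 and 415 CPM in irradiated libraries. In TPM its irradiated libraries, at 436, 355 and 382, all lay below the controls at 458 and 590. For *Hmgb1* edgeR gave a log2 fold change of −0.17 (95% confidence interval −0.55 to 0.22, adjusted p = 0.489 in edgeR), and the length offset gave −0.40 (95% confidence interval −0.72 to −0.07, adjusted p = 0.106 in edgeR). An offset for GC content turned it to 0.21 (adjusted p = 0.421 in edgeR). *Hmgb1* has 42 near-identical genes, all processed pseudogenes, which together were given 2034 and 2498 reads in control and 2384, 1157 and 1885 reads in irradiated libraries. Its own 12778 and 14306 and then 12315, 9006 and 11398 reads are therefore uncertain by the way Salmon divided shared reads. Hmgb1-203, with the shorter 3′ end, took 65.1 and 70.3% of the gene's TPM in control and 73.1, 72 and 69.4% in irradiated libraries.

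*Thbs1*, whose secreted product thrombospondin-1 binds CD47, had 7 and 5 reads in control and 11, 9 and 8 reads in irradiated libraries. At this depth a change could not be resolved (log2 fold change 0.79, 95% confidence interval −1 to 2.59, adjusted p = 0.48 in edgeR, and 1.42 with the length offset, adjusted p = 0.265 in edgeR).

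The wider pathway was read from a list of 51 further genes in 7 roles, of which 36 were tested. In edgeR, 1 was called higher and 7 lower at an adjusted p under 0.05, against 12.7% and 13% of all tested genes, and the median log2 fold change was −0.04. With the length offset 2 of the 36 were called in edgeR, *Pdia3* and *Atp11a*, against 7.11% of all tested genes, so 6 of the 7 lower calls were lost. Without control replicate 2 edgeR called 0 of the 36, of which 7 had an unadjusted p under 0.05, against 1.85% of all tested genes. DESeq2 on all libraries called 15 of the 47 it fitted, against 22.1% of all genes it fitted. With the replicate block none of these 8 genes was called by edgeR, where 11 of the 36 had an unadjusted p under 0.05, and the 1 call was *Gas6*, a bridging molecule, against 7.77% of all tested genes.

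Of 9 genes for phosphatidylserine exposure, 8 were tested and edgeR called 5 lower, against 13% of all tested genes, and with the length offset 1 of these 5. Among them were the flippase genes *Atp11a* and *Atp8a1*, which keep phosphatidylserine on the inner leaflet, the scramblase gene *Ano6*, and *Xkr4*, a relative of the scramblase *Xkr8*. *Atp11a* had 235 and 157 CPM in control and 89.5, 90.2 and 112 CPM in irradiated libraries, and all irradiated libraries were below both controls. Its log2 fold change was −1.01 (adjusted p = 0.0126 in edgeR), and −0.65 with the length offset (adjusted p = 0.0457 in edgeR), but −0.94 and not called with the replicate block (adjusted p = 0.0664 in edgeR), nor without control replicate 2 (−0.67, adjusted p = 0.0792 in edgeR). The values of *Atp8a1*, *Ano6* and *Xkr4* were −0.70, −0.64 and −1.58, with edgeR adjusted p values of 0.0201, 0.0417 and 0.0467, and none of these 3 was called with the length offset, at −0.27, −0.18 and −1.37, or without control replicate 2, at −0.53, −0.35 and −1.18 (adjusted p = 0.136, 0.317 and 0.253 in edgeR). *Tmem30a*, the subunit that flippases need and the most abundant gene of the role at 65 TPM, was not called (log2 fold change 0.32, adjusted p = 0.167 in edgeR, and 0.53 with the length offset), but was called higher with the GC offset (0.77, adjusted p = 0.0213 in edgeR).

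The 4 endoplasmic reticulum chaperone genes, partners of calreticulin in folding, included the 1 call upward. *Pdia3*, the disulfide isomerase that works with calreticulin, had 241 and 294 CPM in control and 405, 432 and 401 CPM in irradiated libraries. Its log2 fold change was 0.63 (adjusted p = 0.0262 in edgeR) and 0.62 with the length offset (adjusted p = 0.039 in edgeR). The call was lost, with log2 fold changes from 0.51 to 0.65, with the replicate block (0.65, adjusted p = 0.216 in edgeR) and without control replicate 2, irradiated replicate 1 or irradiated replicate 2 (0.51, 0.64 and 0.59, adjusted p = 0.132, 0.0687 and 0.09 in edgeR). *Hsp90b1*, the most abundant of the role at 319 TPM, was at 0.21 (adjusted p = 0.369 in edgeR) and *Hspa5* at 0.47 (adjusted p = 0.0786 in edgeR), or 0.20 and 0.46 with the length offset. DESeq2 called *Hspa5* higher (adjusted p = 0.0318), as did edgeR without the filter (adjusted p = 0.037) and with the GC offset (adjusted p = 0.0472). *Canx*, for the membrane-bound relative of calreticulin, lay below the controls in all irradiated libraries at a log2 fold change of −0.33 (adjusted p = 0.145 in edgeR), or −0.28 with the length offset.

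Among partners of CD47, 7 of 9 genes were tested and *Ubqln2*, for a ubiquilin of the family that links CD47 to the cytoskeleton, was lower, with 267 and 223 CPM in control and 163, 151 and 167 CPM in irradiated libraries (log2 fold change −0.61, adjusted p = 0.0227 in edgeR). The call was lost with the length offset (−0.46, adjusted p = 0.0587 in edgeR) and without control replicate 2 (−0.46). It was lost too without irradiated replicate 1 or 2 (−0.62 and −0.57, adjusted p = 0.0637 and 0.0873 in edgeR). The integrin subunit gene *Itgb1*, the most abundant of the role at 176 TPM, was at −0.08 (adjusted p = 0.762 in edgeR) and at 0.18 with the length offset. Of 10 receptors of the signals, 8 did not pass the filter on low counts in these tumor cells and 2 were tested. *Lrp1*, the calreticulin receptor of phagocytes, was lower at 83.4 and 47.7 CPM in control and 27.9, 33 and 43.9 CPM in irradiated libraries (log2 fold change −0.91, adjusted p = 0.04 in edgeR). It stood at −0.14 with the length offset (adjusted p = 0.659 in edgeR) and at −0.43, not called, without control replicate 2. The *Lrp1* call was lost too without irradiated replicate 1 or 2 (−0.77 and −0.87, adjusted p = 0.11 and 0.0942 in edgeR) and with the effective length offset (−1.61, adjusted p = 0.1 in edgeR). In TPM its groups overlapped, at 37.4 and 6.45 in control and 2.88, 5.5 and 8.69 in irradiated libraries, and control replicate 2 alone stood high. *Sirpa*, the CD47 receptor, was itself present in KP1 cells, at 37.6 and 34.2 TPM in control and 20.2, 16.6 and 24 TPM in irradiated libraries, without overlap. In CPM the groups overlapped, at 43.7 and 42.3 in control and 38.2, 39.9 and 45.5 in irradiated libraries. It did not pass the test (log2 fold change −0.06, adjusted p = 0.792 in edgeR, and −0.03 with the length offset), and the effective length offset, which like TPM follows the mix of transcripts, gave −0.48 (adjusted p = 0.101 in edgeR).

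In the remaining roles edgeR called no gene with the filter, TMM factors, all libraries and neither offset nor block. DESeq2 called *Cmtm4*, *B2m*, *Nectin2*, *Gas6* and *Hmgb3*, and edgeR called some of these in other settings, such as *B2m* and *Hmgb3* without the filter and with the GC offset. Among 10 other don't-eat-me and checkpoint ligands, 7 were tested, and *Cmtm4* was the most abundant at 50.1 TPM. Its log2 fold change of −0.46 (adjusted p = 0.0779 in edgeR, 0.0485 in DESeq2) turned to 0.37 with the length offset (adjusted p = 0.0907 in edgeR). *B2m*, the light chain of MHC class I, had 5.95 and 9.42 CPM in control and 10.7, 17.5 and 13.9 CPM in irradiated libraries. For *B2m* the log2 fold change was 0.87 (adjusted p = 0.0653 in edgeR, 0.0279 in DESeq2) and 0.24 with the length offset (adjusted p = 0.539 in edgeR). Of 4 bridging molecules, 3 were tested, with *Mfge8* the most abundant at 44.8 TPM (log2 fold change 0.41, adjusted p = 0.0783 in edgeR, and 0.19 with the length offset). *Gas6* had 9.03 and 7.99 CPM in control and 9.8, 22.2 and 21.4 CPM in irradiated libraries, with a log2 fold change of 1.06 (adjusted p = 0.0572 in edgeR, 0.014 in DESeq2), or 1 with the length offset (adjusted p = 0.103 in edgeR). All 5 released danger and find-me signals were tested, led by *Hsp90aa1* at 825 TPM (log2 fold change −0.41, adjusted p = 0.119 in edgeR, and −0.44 with the length offset).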

How the data were processed

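The authors quantified the reads with Salmon against mm10 and deposited, for each library, estimated counts per transcript (expected counts, not scaled) and TPM, abundances scaled to 1000000 in each library. The submitters' processing notes name Salmon 0.8.2 and DESeq2 1.22.2. Deposited transcript lengths and effective lengths were used for offsets.

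Transcripts were matched without version suffix to GENCODE M21 (GRCm38), 112762 of 113116, and summed to 35056 genes, with counts rounded. edgeR 4.0.16 in R 4.3.3 used filterByExpr, TMM, quasi-likelihood tests and Benjamini-Hochberg correction. Alternatives were DESeq2 1.42.0, RLE and upper-quartile factors, no filter, offsets from effective length and from 5-df splines on length or GC content, a replicate block, and each library left out. Statistics were tested on simulated counts. Near-identical genes came from BLAST+ 2.17.0 (95% identity over 80% of the shorter main transcript). The detection floor was 3 reads. Replicates differed far beyond sampling noise.

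Named genes were all 10 genes and all *Cd47* transcripts, called pathway genes, the most abundant gene of each role, and the 5 genes most like *Cd47*. *Hspa5*, *Canx*, *B2m*, *Nectin2*, *Gas6* and *Hmgb3*, *Cd79a*, the called neuroendocrine markers and the transcripts of other genes were added after their values were seen. Of the genes the rule takes, 2 are not reported here. The members and lists were chosen with earlier results of these data known. The 6 single-cell samples were not analysed here.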

Additional observations from a re-analysis of the deposited data

How the results depend on the processing

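Of the 10 genes, 1 was called in the main comparison. DESeq2, upper-quartile factors, the absence of a filter and the GC offset each called 3, the effective length offset 2, and the transcript length offset, the replicate block, the block with the length offset and a log2 fold change beyond 1.5 each called 0 (in edgeR, 3, 2 and 2 of the 10 had an unadjusted p under 0.05 with the length offset, the block and both). The block gives irradiated replicate 1 no weight. Leaving out 1 library gave 0 to 2. For the pathway list (8 called), DESeq2 gave 15, the absence of a filter 14, the effective length offset 5, the length offset 2, the replicate block 1, the block with the length offset 1 (with either block *Gas6*, which is not among the 8), and the fold limit 1. Leaving out 1 library gave 0 to 12. For all genes (3613 called), the length offset gave 1003, the replicate block 1096, the block with the length offset 109, and the fold limit 498. Leaving out 1 library gave 270 to 4209, the lowest without control replicate 2. The cause was not tested. A comparison with 1 control assumes that it varies like the other libraries.

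The log2 fold change of *Cd47* was below 0 in every setting, from −0.65 to −0.17, and over the libraries left out it ran from −0.62 to −0.33, called without irradiated replicate 1. *Pvr* was at 0.06 with the effective length offset and at 0.06 without control replicate 2, and *Hmgb1* was at 0.21 with the GC offset. No *Cd47* transcript was called in any setting, and the Cd47-205 share was higher after irradiation in each, from 3.75 to 12.9 points. *Thbs1* was not kept by the filter without irradiated replicate 1 or 2.

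Replicates 2 and 3 did not deviate together (r = −0.151 across 14106 genes, between the groups' log2 ratios of replicate 2 to 3), and nothing in the labels says that the numbers pair the cultures. Crossing the pairing, chosen after the data were seen, called 5 of the 10 genes, 18 of the pathway list and 5696 of all genes, *Cd47* among them at −0.63.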

Other observations

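The comparison holds 2 control and 3 irradiated libraries at 1 dose and 1 time in 1 line. RNA was measured, so CD47 and calreticulin at the cell surface, pyroglutamate on CD47 and released HMGB1 were not. *Cd274*, *Pvr*, *Qpct* and *Thbs1* rest on 5 to 229 reads a library. Shared reads leave *Hmgb1* uncertain, and *Hmgb1* and *Qpctl* overlap the genes *Uspl1* and *Fbxo46* on the opposite strand. The sources used here do not say whether counting used strand.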
